A study of Mus musculus with 4 samples.

Results

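The spots described here are the 557 of 11130 Visium spots, over 4 mouse kidney sections, that held the most transcript of the distal convoluted tubule (DCT). They were chosen by the measured levels of Slc12a3, the thiazide-sensitive sodium-chloride cotransporter NCC that defines the segment, and Trpm6, the apical magnesium channel of the same cells. In each spot the counts of both genes were divided by the spot's counts outside the mitochondrial genome, scaled to 10000, log-transformed as the natural log of 1 plus the value, and added. The top 5% of spots of each section, called DCT-rich spots below, were 126 of 2528 and 168 of 3362 spots in Control replicates 1 and 2 and 133 of 2650 and 130 of 2590 spots in Uox_KO replicates 1 and 2. The other 10573 spots are called other spots. A spot is a small area of tissue that can hold several cells, so a DCT-rich spot is a mixture and not a DCT cell.

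Visium captures polyadenylated RNA of a tissue section on a slide printed with barcoded spots and counts unique molecular identifiers (UMIs) per gene and spot. The sections, 10 µm thick and fresh frozen, came from male mice bought from GemPharmatech, with 1 section per mouse going by the sample titles. The 2 Uox_KO mice carry a deletion of exons 2 to 4 of Uox, the urate oxidase gene, made on a C57BL/6J background, and the series uses them as a model of hyperuricemia. The 2 Control mice are wild-type males of the same background, and the labels give no age, diet or treatment for either genotype. Urate oxidase is an enzyme of the mouse liver, and Uox had 0 UMIs in the DCT-rich spots of all 4 sections, so the deletion could not be checked in them.

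The DCT is the short nephron segment between the macula densa and the connecting tubule. It takes up sodium chloride through NCC, which kinases of the WNK and SPAK families switch on when basolateral potassium channels sense low plasma potassium, and it sets the final reabsorption of magnesium. Its early portion (DCT1) makes parvalbumin and much of the kidney's epidermal growth factor, while its late portion (DCT2) shares with the connecting tubule the machinery for calcium entry, buffering and extrusion and the aldosterone-driven sodium channel ENaC.

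The score separated the sections unequally. The lowest score inside the DCT-rich spots and the highest outside were 3.56 and 3.56 in Control replicate 1, 3.91 and 3.91 in Control replicate 2, 2.41 and 2.40 in Uox_KO replicate 1, and 3.21 and 3.17 in Uox_KO replicate 2. Median scores of DCT-rich spots were 3.96 and 4.33 in Control and 3.38 and 3.82 in Uox_KO, against 1.13, 1.38, 0.0 and 0.456 in the other spots of the same sections. The lowest scores that qualified were therefore in Uox_KO, and a rerun with 1 score threshold for all sections kept 81 and 214 spots in Control and 41 and 69 in Uox_KO. Slc12a3, whose level chose the spots and is given without a test, stood at 2505 and 3124 UMIs per 1000000 (CPM, for Slc12a3 and Trpm6 with unscaled library totals) in the DCT-rich spots of Control and at 2220 and 2850 CPM in those of Uox_KO. In the other spots it stood at 343 and 441 CPM in Control and at 35.0 and 101 CPM in Uox_KO. Trpm6 was at 82.7 and 99.6 CPM in DCT-rich spots of Control and at 29.9 and 45.9 CPM in those of Uox_KO. Between 98.2% and 100% of the DCT-rich spots of Control held a Trpm6 UMI, against 39.1% and 56.2% in Uox_KO, so Slc12a3 weighed more in the choice there.

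**Figure D1:**
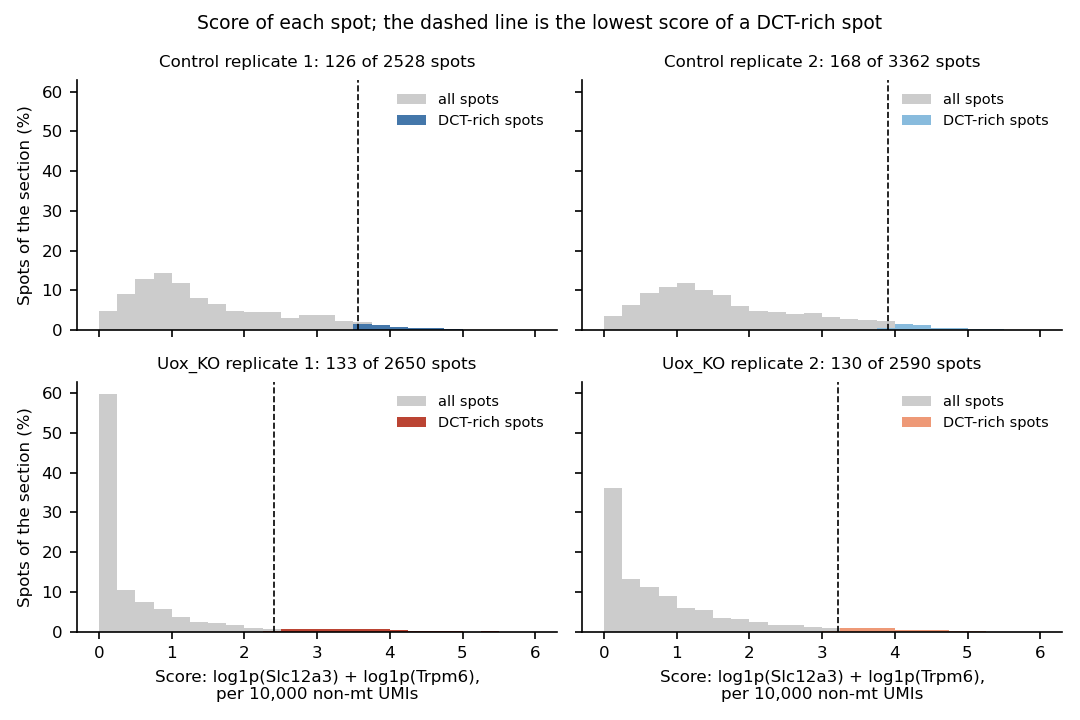
Distribution of the Slc12a3 and Trpm6 score over the spots of each section (x axis, sum of natural-log values; y axis, percent of the section's spots), with DCT-rich spots in colour and their lowest score as a dashed line. The dashed line lies at 2.41 and 3.21 in Uox_KO and at 3.56 and 3.91 in Control, and the median score of the other spots of Uox_KO replicate 1 was 0.0.

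The median depth of a DCT-rich spot was 34219 and 30519 UMIs in the Control sections and 15624 and 19453 in those of Uox_KO, close to those of the other spots (37543.5, 32143, 16727 and 19612). Their summed counts, which every test below uses, came to 4350544 and 5160522 for Control and to 2545900 and 2791547 for Uox_KO, or 4.65% to 4.88% of a section's total. Visium slides print 1 set of barcodes, and pairs of sections shared 1861 to 2539 spot barcodes, with 0 to 8 shared between their DCT-rich spots. Of the UMIs of DCT-rich spots, 16.5% and 18.0% were from mitochondrially encoded genes in Control and 20.1% and 23.8% in Uox_KO, against 12.9%, 13.8%, 14.0% and 17.0% in other spots. Among DCT-rich spots, 4.76% to 11.1% also lay in their section's top 10% for Slc12a1, the sodium-potassium-chloride cotransporter of the thick ascending limb, and 2.38% to 8.27% in the top 10% for the principal cell genes Aqp2 and Fxyd4.

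Genes of the DCT other than those that chose the spots were higher in DCT-rich spots than in the rest of the same section. Over the 4 sections edgeR's quasi-likelihood test, with the section as a block, called 2381 of 15770 genes higher (15.1%) and 3470 lower (22.0%), 37.1% in all, at an adjusted p (Benjamini-Hochberg) below 0.05. Spots chosen for 1 gene of a cell also gain that cell's other genes, so this comparison describes what the chosen tissue holds. All 7 other markers listed for the DCT were among the higher genes: Pvalb, Wnk1, Klhl3, Kcnj10, Sall3, Emx1 and Tfap2b. The mean within-section difference was log2 3.59 for Sall3 and 2.35 for Emx1, both developmental transcription factors, 3.34 for Pvalb and 2.86 for Klhl3, the ubiquitin ligase adaptor that removes WNK kinases. This mean weighs both genotypes equally, and for Pvalb its Uox_KO part rests on few UMIs. The Uox_KO sections held 8 and 22 of them, with 6 and 7 in DCT-rich spots. Of 13 early DCT genes 12 were higher and 0 lower (median log2 2.35), where the median over all genes was -0.09. Of 17 genes of NCC regulation 12 were higher and 3 lower, of 13 calcium transport genes 10 and 2, and of 11 late DCT and connecting tubule genes 9 and 2.

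The spots also carried RNA of neighbouring segments, at levels that differed by cell type. Of 11 intercalated cell markers tested, 7 were higher and 0 lower in DCT-rich spots, and of 9 principal cell markers 3 were higher and 4 lower. The 12 thick ascending limb markers were split, with 6 higher and 4 lower, where 15.1% of all genes were called higher and 22.0% lower. Markers of the S1 and S2 proximal tubule summed to 9090.5 and 8313 CPM in Control and 4147 and 3264 CPM in Uox_KO, against 15448 and 14784 CPM in Control and 6578 and 7677 CPM in Uox_KO in other spots, and 13 of 15 were lower while 0 were higher. Of 40 nuclear genes of oxidative phosphorylation 32 were higher and 0 lower, as were 12 of 13 mitochondrially encoded genes, in spots whose mitochondrial share was itself the higher one in every section.

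Genes outside the fixed lists that ranked among the 10 most enriched included Lpo, lactoperoxidase (log2 3.82), Htr3a, a serotonin-gated channel subunit (3.81), Cwh43 (3.41), Ptgfr, the prostaglandin F receptor (3.36), and Rsph10b (2.91). Lpo and Htr3a were below 10 CPM in the DCT-rich spots of both Control sections and entered this ranking through Uox_KO. Pvalb and Sall3 were among the 10 too, and the other 3 are predicted genes that are not named. Ptgfr stood at 129 and 139 CPM in Control and 121 and 175 CPM in Uox_KO in DCT-rich spots, and in the fit of both spot classes at 5.36 and 5.41 times in Control and 24.2 and 17.2 times in Uox_KO the level of the section's other spots. Cwh43 stood at 136 and 152 CPM in Control and 78 and 101 CPM in Uox_KO, and in that fit at 6.03 and 5.6 times in Control and 30.1 and 15 times in Uox_KO the other spots' level. For both genes each Uox_KO section had a higher ratio than each Control section.

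Many genes of the segment were more concentrated in the DCT-rich spots of Uox_KO, going by the share of a section's UMIs that these spots held. For Slc12a3 that share was 26.3% and 26.2% in Control and 75.9% and 59.0% in Uox_KO, and DCT-rich spots held 7.31 and 7.08 times the level of other spots in Control but 63.5 and 28.1 times in Uox_KO. For Trpm6 the shares were 33.9% and 30.8% in Control and 27.4% and 32.7% in Uox_KO, with ratios of 10.5, 8.88, 7.63 and 9.49, so the sections of both genotypes overlapped. Slc12a3 and Trpm6 chose the spots, and these values are a description. Sall3 went from 25.9% and 24.6% of its UMIs to 62.2% and 49.4%, Calb1 from 16.6% and 15.0% to 49.4% and 29.7%, and Klk1 from 9.36% and 8.13% to 43.7% and 28.8%. Kcnj10 went from 14.4% and 15.4% to 40.2% and 28.6%. Slc41a3 went the other way, from 18.3% and 16.7% to 3.45% and 3.35%, which is below the 4.65% to 4.88% that DCT-rich spots take of all UMIs. The proximal gene Slc34a1 stayed between 2.21% and 3.23% in the 4 sections.

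**Figure D2:**
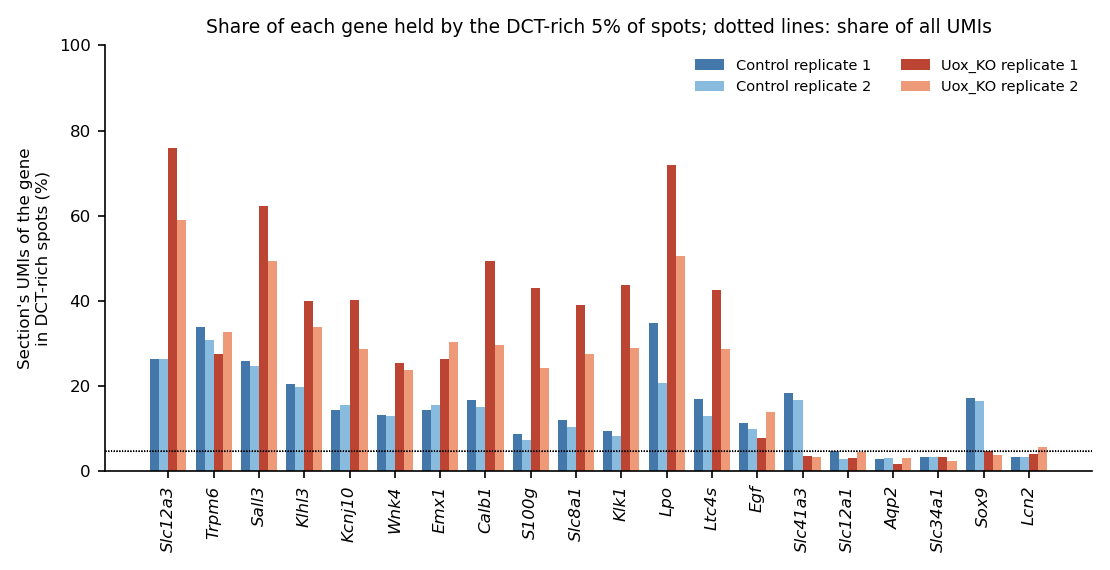
Percent of a gene's UMIs in a section that fell in the section's DCT-rich spots, with 1 bar per section and dotted lines at the share these spots take of all UMIs (4.65% to 4.88%). Slc12a3, Sall3, Calb1 and Kcnj10 had higher shares in both Uox_KO sections, and Slc41a3 lower ones (3.45% and 3.35% against 18.3% and 16.7%).

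Within DCT-rich spots, Uox_KO was compared with Control over the 4 summed sections, 2 per genotype, and p-values measure only the spread between these sections. Of 11607 genes tested, edgeR's quasi-likelihood test called 1660 higher in Uox_KO (14.3%) and 1690 lower (14.6%), 28.9% in all, at an adjusted p below 0.05, with a median change of log2 -0.01. Without Control replicate 2 the higher calls were 1055, and without Control replicate 1 the lower calls were 1119. The sections of both genotypes did not overlap for 7542 of the 11607 genes (65.0%), so non-overlap alone was common. Changes past 2-fold were called for 817 higher and 614 lower genes, and past 4-fold for 264 and 118. In bulk sums like these, fewer DCT cells per spot and less RNA per DCT cell cannot be told apart. Since a DCT-rich spot holds other cells too, levels of those cells' markers are given with the groups below.

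Parvalbumin transcript was far lower in the DCT-rich spots of Uox_KO. Its near loss in Uox_KO was known before the spots were chosen, and Pvalb was left out of the score for that reason. The p-value below therefore describes a known fall and is not independent support for it. Pvalb, the calcium-buffering protein of the early DCT (ENSMUSG00000005716, GRCm38.p6 chr15:78191112-78206400), gave 1922 and 2431 UMIs over the DCT-rich spots of Control and 6 and 7 over those of Uox_KO. Its level was 463 and 492 CPM in Control and 2.19 and 2.47 CPM in Uox_KO, a 202-fold difference (log2 -7.66 ± 0.21 (SE), adjusted p = 3.43e-11 by edgeR's quasi-likelihood test). For every 100 Slc12a3 UMIs these spots held 17.6 and 15.1 Pvalb UMIs in Control and 0.106 and 0.0880 in Uox_KO, a description, since Slc12a3 chose the spots. With every spot thinned to 5000 UMIs, 76.8% and 78.0% of DCT-rich spots of Control held a Pvalb UMI (125 and 168 spots) against 0.787% in each Uox_KO section (127 spots each), with 1, 0, 6 and 3 shallower spots left out. The unthinned shares were 99.2%, 96.4%, 2.26% and 4.62%, and the thinned shares of other spots were 20.1%, 22.4%, 0.0448% and 0.130%. The exact permutation test over sections gave p = 0.333, the smallest that 2 sections against 2 allow. Pvalb also fell outside the DCT-rich spots (log2 -8.82), where few UMIs remained. The whole Uox_KO sections held 8 and 22 Pvalb UMIs, with 6 and 7 of them in DCT-rich spots. On these few UMIs, edgeR's test of the difference between both spot classes gave log2 1.22 with adjusted p = 0.198. With 1 score threshold for all sections that difference was called, at log2 1.68 with adjusted p = 0.0376.

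Several genes that carry calcium across the late DCT and the connecting tubule were higher in the same spots. Calb1, S100g, Trpv5 and Slc8a1 are also listed as markers of the connecting tubule. The part of connecting tubule tissue in their rises was not tested. Of 13 calcium transport genes tested 7 were higher in Uox_KO and 2 lower, with a median of log2 0.89 where all genes had -0.01. S100g, the calbindin-D9k buffer, was at 3142 and 3719 CPM in Control and 5485 and 10591 CPM in Uox_KO (log2 1.23 ± 0.24 (SE), adjusted p = 0.00169). Calb1, the calbindin-D28k buffer, was at 1055 and 1154 CPM in Control and 1586 and 2507 CPM in Uox_KO (log2 0.89 ± 0.19 (SE), adjusted p = 0.00247), and Slc8a1, the sodium-calcium exchanger NCX1, at 314 and 313 CPM in Control and 492 and 783 CPM in Uox_KO (log2 1.02 ± 0.18 (SE), adjusted p = 0.000587). For all 3 genes both Uox_KO sections lay above both Control sections, and Uox_KO replicate 2 was the highest. Without that section the changes were called at smaller sizes, log2 0.70 for S100g, 0.54 for Calb1 and 0.67 for Slc8a1. The entry channel Trpv5 stood at 18.1 and 15.2 CPM in Control and 32.4 and 39.8 CPM in Uox_KO (log2 1.13 ± 0.18 (SE), adjusted p = 0.000265), and the plasma membrane calcium pump Atp2b4 at 30.1 and 32.8 CPM in Control and 60.5 and 74.7 CPM in Uox_KO (log2 1.10 ± 0.15 (SE), adjusted p = 6.84e-05). Both genes were higher in each Uox_KO section than in each Control section.

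Other members of the calcium group were split. Casr, the calcium-sensing receptor, rose from 11.6 and 9.31 CPM to 17.8 and 23.6 CPM (adjusted p = 0.0038), a call lost when the top 10% of spots were taken (log2 0.50, adjusted p = 0.0559). Atp2b1, another plasma membrane calcium pump, passed with log2 0.49 and adjusted p = 0.0349, and was not called without Control replicate 2 (adjusted p = 0.264) or without Uox_KO replicate 2 (0.202). Trpv6, the close relative of Trpv5, had log2 0.95 with adjusted p = 0.0798, and 0.0244 without Uox_KO replicate 1 at log2 1.302. Cyp24a1, the enzyme that inactivates vitamin D, was 6.1-fold lower, with 79.3 and 65.8 CPM in Control and 14.2 and 9.51 CPM in Uox_KO (log2 -2.61 ± 0.19 (SE), adjusted p = 3.38e-07). Vdr, the vitamin D receptor, and Kl, the FGF23 co-receptor klotho, had log2 0.07 and 0.08 with adjusted p = 0.743 and 0.797. Klotho turned with the section left out, to 0.38 without Uox_KO replicate 1 and to -0.28 without Uox_KO replicate 2, each of which was called. Pth1r, the parathyroid hormone receptor, had log2 0.36 with adjusted p = 0.065, and was called without Uox_KO replicate 2 at 0.52.

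**Figure D3:**
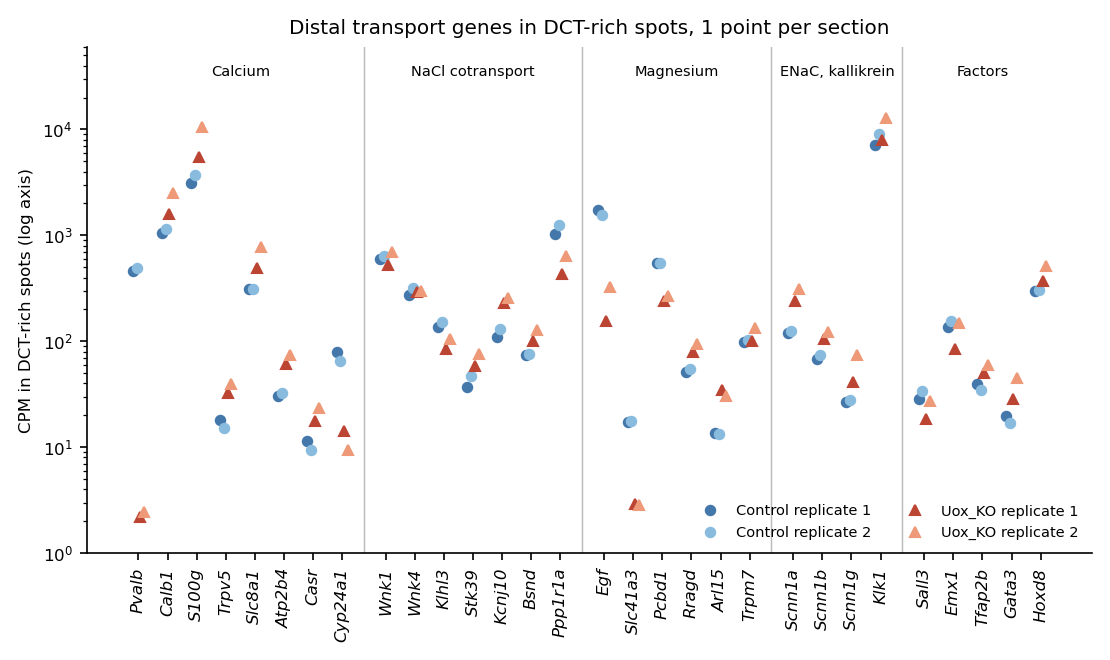
Level in DCT-rich spots of genes of the segment in each section (log-scaled axis, CPM with TMM-scaled library sizes), with 1 point per section and genotypes by colour. Pvalb lies at 463 and 492 CPM in Control and at 2.19 and 2.47 CPM in Uox_KO, while Calb1, S100g and Kcnj10 lie above the Control sections in both Uox_KO sections.

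Upstream sequence of 2 genes whose levels fell in DCT-rich spots, Pvalb and Slc41a3, and of 1 calcium gene that rose, S100g, is shown because the transcription factors of the segment are described further on. Each line gives the 250 bases before the RefSeq start site, on the gene's strand, from GRCm38.p6: Pvalb at chr15:78206401-78206650 (minus strand), Slc41a3 at chr6:90618996-90619245 (plus strand) and S100g at chrX:162964600-162964849 (minus strand). Capitals mark matches to the letters GCCNNNGGC, which AP-2 factors such as Tfap2b bind, and AAGGTCA, which nuclear receptors such as Esrrb bind.
Pvalb: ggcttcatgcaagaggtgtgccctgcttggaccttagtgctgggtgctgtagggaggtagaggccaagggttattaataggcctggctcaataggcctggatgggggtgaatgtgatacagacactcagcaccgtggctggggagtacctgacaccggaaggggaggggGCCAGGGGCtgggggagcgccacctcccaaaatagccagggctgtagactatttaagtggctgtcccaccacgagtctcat
Slc41a3: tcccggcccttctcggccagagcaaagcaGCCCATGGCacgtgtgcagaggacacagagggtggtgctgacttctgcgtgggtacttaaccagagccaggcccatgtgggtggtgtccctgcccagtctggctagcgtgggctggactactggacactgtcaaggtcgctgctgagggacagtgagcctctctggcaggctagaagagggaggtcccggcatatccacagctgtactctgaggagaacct
S100g: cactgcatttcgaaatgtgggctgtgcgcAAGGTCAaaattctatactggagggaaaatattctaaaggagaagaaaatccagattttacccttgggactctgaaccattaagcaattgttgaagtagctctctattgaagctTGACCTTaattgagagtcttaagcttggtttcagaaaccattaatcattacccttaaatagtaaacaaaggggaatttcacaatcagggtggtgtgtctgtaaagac
GCCNNNGGC reads the same on both strands, and was found at -81 from the start of Pvalb as GCCAGGGGC and at -221 from that of Slc41a3 as GCCCATGGC. Among 32851 RefSeq promoter windows of the same length, 13.7% held it. S100g held AAGGTCA at -221 and its reverse complement TGACCTT at -107, letters that 4.08% of windows held on either strand. TATAAA was not found on either strand in these windows, against 12.4% of all windows. The table lists 2 starts for Pvalb, of which the one at the gene's 5′ end was taken, and the listed start of Slc41a3 lies inside its gene (chr6:90604730-90646412). The window of Lpo, a gene enriched in these spots, was searched too and is not shown. It held no match to GCCNNNGGC, AAGGTCA or TATAAA on either strand. These matches describe letters and not binding.

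Genes that set NCC activity did not move as 1 group. For comparison, 14.3% of all genes were called higher and 14.6% lower. Of 17 tested 4 were higher and 4 lower in Uox_KO, with a median of log2 -0.01, the same as all genes, and without Control replicate 1 the calls were 2 and 2. Kcnj10, the basolateral potassium channel Kir4.1 of the DCT, rose 2.01-fold, with 111 and 130.4 CPM in Control and 230.2 and 255 CPM in Uox_KO (log2 1.01 ± 0.13 (SE), adjusted p = 4.88e-05). Bsnd, barttin, was at 74.3 and 75.9 CPM in Control and 100.2 and 127 CPM in Uox_KO (log2 0.60 ± 0.14 (SE), adjusted p = 0.00461). Stk39, the kinase SPAK that phosphorylates NCC, was at 36.9 and 46.6 CPM in Control and 59 and 75.8 CPM in Uox_KO (log2 0.69 ± 0.16 (SE), adjusted p = 0.00505), and without Control replicate 1 its adjusted p was 0.0683. Each of these 3 genes was higher in both Uox_KO sections than in either Control section.

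Among the falls of this group, Klhl3 was at 137 and 151 CPM in Control and 83.8 and 105 CPM in Uox_KO (log2 -0.61 ± 0.14 (SE), adjusted p = 0.00403), with both Uox_KO sections below both Control sections. It was not called with 1 score threshold (log2 -0.14, adjusted p = 0.391) or with spots scored after thinning to 5000 UMIs (log2 -0.35, adjusted p = 0.0537). Ppp1r1a, the protein phosphatase inhibitor of the DCT, was at 1039 and 1264 CPM in Control and 436 and 636 CPM in Uox_KO (log2 -1.10 ± 0.17 (SE), adjusted p = 0.000277). Slc4a4, a sodium bicarbonate cotransporter best known from the proximal tubule, had log2 -0.71 with adjusted p = 0.00504, and 0.135 without Control replicate 1. Cab39l, a scaffold of SPAK, had log2 -0.48 with adjusted p = 0.0167, and was not called without Control replicate 1 (0.0849) or replicate 2 (0.107). The kinase genes themselves had overlapping sections: Wnk1 was at 594 and 644 CPM in Control and 529.6 and 699.8 CPM in Uox_KO and Wnk4 at 273 and 318 CPM in Control and 290.0 and 296 CPM in Uox_KO. Their changes were log2 -0.01 and -0.01 with adjusted p = 0.972 and 0.96, and with 1 score threshold both turned upward, to 0.55 and 0.30. Wnk3 was too low to be tested.

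Among magnesium genes Egf and Slc41a3 fell steeply and most others did not pass. The 15 tested had 2 rises and 3 falls (median log2 -0.16), where 14.3% of all genes were called higher and 14.6% lower. Egf, the growth factor whose release stimulates Trpm6, was at 1725 and 1561 CPM in Control and 156 and 326 CPM in Uox_KO, 6.81-fold lower (log2 -2.77 ± 0.25 (SE), adjusted p = 1.85e-06). Slc41a3, a sodium-magnesium exchanger expressed in the DCT, gave 72 and 87 UMIs in Control and 8 in each Uox_KO section, or 17.4 and 17.6 CPM in Control and 2.91 and 2.82 CPM in Uox_KO. That is a 6.05-fold difference (log2 -2.60 ± 0.30 (SE), adjusted p = 1.54e-05), and all Uox_KO values lay below all Control values. In the other spots Slc41a3 was at 3.96 and 4.62 CPM in Control and 3.91 and 3.94 CPM in Uox_KO (log2 -0.13, adjusted p = 0.369), where the sections of both genotypes lay close together. The difference between both spot classes was log2 -2.38 ± 0.34 (SE), adjusted p = 0.000121. In the fit that scales both spot classes together, DCT-rich spots of Control held 4.07 and 3.55 times the other spots' level, and those of Uox_KO 0.737 and 0.712 times.

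Pcbd1, a pterin dehydratase that also binds transcription factors, fell 2.14-fold, with 543 and 544 CPM in Control and 242 and 266 CPM in Uox_KO (log2 -1.10 ± 0.13 (SE), adjusted p = 1.72e-05). Both rises of the magnesium group were in genes of cellular magnesium and nutrient sensing: Arl15, a regulator of CNNM magnesium transporters, at 13.7 and 13.4 CPM in Control and 34.6 and 30.3 CPM in Uox_KO (log2 1.26 ± 0.18 (SE), adjusted p = 9.71e-05) and Rragd, a GTPase of the mTORC1 pathway, at 50.9 and 54.9 CPM in Control and 78.7 and 93.4 CPM in Uox_KO (log2 0.70 ± 0.14 (SE), adjusted p = 0.0014). Cnnm2, a basolateral magnesium transport protein, had log2 0.20, Trpm7, the partner channel of Trpm6, 0.23 and Fxyd2, the sodium pump's gamma subunit, -0.32. None of these 3 passed (adjusted p = 0.33, 0.244 and 0.165), though Trpm7 was called without Uox_KO replicate 1 (0.42) and Fxyd2 without Uox_KO replicate 2 (-0.37). Egf also fell in other spots (log2 -2.94). Its difference between both spot classes was 0.20 with adjusted p = 0.569, and turned from 0.45 without Uox_KO replicate 1 to -0.46 without Uox_KO replicate 2, both called.

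The 12 early DCT genes tested had 2 rises and 4 falls (median log2 -0.17), where 14.3% of all genes were called higher and 14.6% lower. The 4 lower genes were Pvalb, Egf, Klhl3 and Ppp1r1a, and the 2 higher ones Kcnj10 and Tfap2b, with 1 rise left without Control replicate 2. Sall3 and Emx1, transcription factors enriched in these spots, had log2 -0.45 and -0.34 with adjusted p = 0.0962 and 0.211. Sall3 was at 28.5 and 34.2 CPM in Control and 18.6 and 27.5 CPM in Uox_KO and Emx1 at 137 and 157 CPM in Control and 84.1 and 148 CPM in Uox_KO. Uox_KO replicate 2 lay close to the Control sections for both, and without it both were called lower, at -0.74 and -0.79.

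Of 22 transcription factors of the distal nephron 6 were higher and 1 lower (median log2 0.17), and in the top 10% of spots the counts were 6 and 6 (0.066). Without Control replicate 2 the calls were 3 and 0, and without Uox_KO replicate 2 the lower ones were 3. Elf3, an epithelial ETS factor, was at 15.4 and 16.8 CPM in Control and 48.1 and 41.6 CPM in Uox_KO (log2 1.47 ± 0.16 (SE), adjusted p = 1.16e-05), Gata3, a factor of the connecting tubule and collecting duct, at 19.8 and 17 CPM in Control and 28.4 and 45.1 CPM in Uox_KO (log2 1.01 ± 0.21 (SE), adjusted p = 0.00209), and Tfcp2l1, a collecting duct factor, at 121 and 134 CPM in Control and 221 and 259 CPM in Uox_KO (log2 0.92 ± 0.13 (SE), adjusted p = 0.000109). Gata3 without Uox_KO replicate 2 was 0.66, a smaller change that passed too. The rises of Tfap2b (log2 0.56, adjusted p = 0.0102), Hoxd8 (0.56, 0.0118) and Ehf (0.95, 0.0226) were lost in some fits that left out 1 section. Tfap2b was not called without Control replicate 2 (adjusted p = 0.128), Hoxd8 without Control replicate 1 (0.115) or 2 (0.0746) and with a smaller change of 0.33 without Uox_KO replicate 2, and Ehf without any 1 of the sections (0.0504 to 0.12). The lower factor was Esrrb (log2 -0.63, adjusted p = 0.024), an estrogen-related receptor, not called without Control replicate 2 (0.0927) or Uox_KO replicate 1 (0.147).

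The late DCT and connecting tubule group had 8 of 11 genes higher and 1 lower, with a median of log2 1.02. Beside the calcium genes it holds ENaC. Scnn1a, its alpha subunit, was at 120.1 and 125 CPM in Control and 241 and 312 CPM in Uox_KO, 2.25-fold higher (log2 1.17 ± 0.14 (SE), adjusted p = 2.34e-05). Scnn1b, the beta subunit, was at 68.5 and 74.7 CPM in Control and 106 and 121 CPM in Uox_KO (log2 0.66 ± 0.13 (SE), adjusted p = 0.00144) and Scnn1g, the gamma subunit, at 26.5 and 27.7 CPM in Control and 41.2 and 74.7 CPM in Uox_KO (log2 1.10 ± 0.21 (SE), adjusted p = 0.00151), with 0.62 without Uox_KO replicate 2. All 3 subunits were higher in each Uox_KO section than in each Control section. Ahnak, a large scaffold protein, was at 27.2 and 25.9 CPM in Control and 94.3 and 70.8 CPM in Uox_KO (log2 1.63 ± 0.16 (SE), adjusted p = 3.8e-06). Klk1, tissue kallikrein, had log2 0.36 with adjusted p = 0.244, and 0.67 without Uox_KO replicate 1, which was called.

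The 1 fall of the group was Hsd11b2, the enzyme that shields the mineralocorticoid receptor from glucocorticoids, at 139 and 131 CPM in Control and 56.5 and 106 CPM in Uox_KO (log2 -0.73 ± 0.20 (SE), adjusted p = 0.0128). The size of that fall turned on 1 section, from -0.35 without Uox_KO replicate 1 to -1.24 without Uox_KO replicate 2. Sgk1, a kinase induced by aldosterone, was at 63.2 and 55.7 CPM in Control and 46.6 and 46.5 CPM in Uox_KO in DCT-rich spots (log2 -0.35, adjusted p = 0.0728) and higher in Uox_KO in the other spots (log2 0.71). That difference between both spot classes passed (log2 -0.96 ± 0.12 (SE), adjusted p = 3.33e-05). Errfi1, a feedback inhibitor of EGF receptor signalling that steroids induce, fell from 313 and 284 CPM to 96.5 and 73.6 CPM (log2 -1.81, adjusted p = 7.54e-07).

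Collecting duct markers were present in these spots. Their counts of calls stand beside 14.3% of all genes called higher in Uox_KO and 14.6% called lower. Principal cell markers summed to 391 and 399 CPM in Control and 295 and 486 CPM in Uox_KO, with 4 of 8 higher and 3 lower, and Scnn1b, Scnn1g, Hsd11b2 and Gata3 stand in this list too. Intercalated cell markers summed to 663 and 704 CPM in Control and 429 and 668 CPM in Uox_KO, with 1 of 11 higher (2 without Uox_KO replicate 1) and 4 lower. No marker of either cell type was at 0, and the sections of both genotypes overlapped in both sums. Their part in the rises of the late DCT and connecting tubule genes was not tested, and neither was that of connecting tubule tissue. Spots that also ranked high for Slc12a1 or for Aqp2 and Fxyd4 were left out in an alternative, which called 1621 genes higher and 1693 lower, close to the 1660 and 1690 with them. These totals cover all genes and do not address that part. Of the 11 late DCT and connecting tubule genes this alternative called 8 higher and 1 lower, with a median of log2 0.90 against 1.02. It left out no spots for intercalated cell or connecting tubule markers.

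The sodium pump, which drives transport in this segment, had 1 of 7 genes higher and 1 lower, and up to 2 each way without 1 section. Its beta subunit Atp1b1 had log2 0.28 with adjusted p = 0.212, and was called without Uox_KO replicate 1 (0.42). The fall was Fxyd4 (log2 -1.15), the pump regulator of the collecting duct, and the rise Fxyd5 (1.91), dysadherin. These pump counts lie near the shares over all genes, 14.3% higher and 14.6% lower. Nuclear genes of oxidative phosphorylation had 20 of 40 lower and 0 higher (median log2 -0.40), among them Cycs, cytochrome c, at 1033 and 1056 CPM in Control and 527 and 649 CPM in Uox_KO (log2 -0.83 ± 0.14 (SE), adjusted p = 0.000517) and Sdhb, a complex II subunit (log2 -0.69). That count was 6 without either 1 of the Control sections and 31 without Uox_KO replicate 2. Of the 13 mitochondrially encoded genes 3 were higher and 0 lower, and without Uox_KO replicate 1 or 2 the higher ones were 10 and 5. Among the 3 was mt-Nd3, a complex I subunit, at 4276 and 3865 CPM in Control and 6925 and 9246 CPM in Uox_KO (log2 0.99, adjusted p = 0.000885), not called without Control replicate 2 (0.0818). The mitochondrial share of UMIs was 16.5% and 18.0% in Control and 20.1% and 23.8% in Uox_KO, and its part in these counts was not tested.

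Genes of tubular injury and of the remodelled distal epithelium were higher in the DCT-rich spots of Uox_KO. Of 18 injury genes tested 16 were higher and 0 lower (median log2 2.64), and of 17 remodelling genes 16 and 0 (1.64). Lcn2, the injury protein NGAL, had 1 UMI in each Control section, or 0.241 and 0.202 CPM, and 91.1 and 100.1 CPM in Uox_KO (adjusted p = 2.66e-10), a contrast whose fold rests on those single UMIs. Krt18, an epithelial keratin, was at 14 and 12.6 CPM in Control and 84.9 and 71.2 CPM in Uox_KO (log2 2.56 ± 0.16 (SE), adjusted p = 6.06e-08) and Spp1, osteopontin, at 884 and 907 CPM in Control and 6288 and 5303 CPM in Uox_KO (log2 2.69 ± 0.17 (SE), adjusted p = 5.56e-08). Sox9, a factor of repairing tubule cells, was at 3.38 and 2.43 CPM in Control and 21.1 and 19 CPM in Uox_KO (log2 2.79 ± 0.28 (SE), adjusted p = 5.12e-06), and rose less than in other spots (log2 4.90 there, difference -2.001, adjusted p = 0.00191). For Krt18, Spp1 and Sox9 each Uox_KO section lay several times above each Control section.

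After thinning to 5000 UMIs, the share of DCT-rich spots with an Lcn2 UMI was 20.1 percentage points higher in Uox_KO, and that with a UMI of Havcr1, the injury marker KIM-1, 8.66 points higher. In Uox_KO these shares were lower in DCT-rich than in other spots. For Lcn2 they were 19.7% and 20.5% against 31.2% and 25.2%, and for Havcr1 11.8% and 5.51% against 17.9% and 18.6%. By the test of the difference 8 of 21 injury genes were more negative in DCT-rich spots and 1 more positive. Of 19 remodelling genes 2 were more negative and 7 more positive. For the genotype difference of both shares the exact permutation test gave p = 0.333, the smallest possible. Among the injury genes Krt20, Ccl2 and Sprr2f were at 0 in the DCT-rich spots of Control, and Sprr2f in those of Uox_KO too.

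Claudins, the tight junction proteins that set which ions pass between cells, were mostly higher. Of 7 distal claudins 6 were higher in Uox_KO and 1 lower (median log2 0.84). Cldn4, a claudin of the distal nephron, was at 12.3 and 14.2 CPM in Control and 61.9 and 83.9 CPM in Uox_KO (log2 2.45 ± 0.18 (SE), adjusted p = 3.07e-07) and Cldn19, a magnesium and calcium pore component of the thick ascending limb, at 7.72 and 7.9 CPM in Control and 47 and 41.6 CPM in Uox_KO (log2 2.497 ± 0.18 (SE), adjusted p = 3.07e-07). Cldn10, the sodium-selective claudin of the thick ascending limb, was the lower one, at 180.4 and 153 CPM in Control and 57.6 and 47.2 CPM in Uox_KO (log2 -1.67 ± 0.15 (SE), adjusted p = 1.51e-06). Uox_KO and Control sections did not overlap for any of these 3. Thick ascending limb markers had 5 of 11 higher and 3 lower, where 14.3% of all genes were called higher and 14.6% lower. They summed to 4231 and 4392 CPM in Control and 2600.5 and 3029 CPM in Uox_KO in DCT-rich spots. Sostdc1, a secreted BMP antagonist listed with that segment, was at 145 and 136 CPM in Control and 349 and 388 CPM in Uox_KO (log2 1.39 ± 0.13 (SE), adjusted p = 2.07e-06). The part of the neighbouring limb in these changes was not tested.

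Matrix and immune genes rose in these spots as well, many by less than in other spots. Of 18 matrix genes 17 were higher and 0 lower (median log2 2.13), with Col1a1, the type I collagen chain, at 9.16 and 6.88 CPM in Control and 172 and 104 CPM in Uox_KO (log2 4.11 ± 0.25 (SE), adjusted p = 5.16e-08). All 15 macrophage genes were higher (median log2 2.22), with C1qb, a complement chain that macrophages make, at 19.8 and 22.3 CPM in Control and 145 and 118 CPM in Uox_KO (log2 2.64 ± 0.15 (SE), adjusted p = 3.71e-08). The macrophage genes summed to 271 and 277 CPM in Control and 1206 and 889 CPM in Uox_KO in DCT-rich spots and to 288 and 263 CPM in Control and 2576 and 2204 CPM in Uox_KO in other spots, and none was at 0. The rises of 12 of the 18 matrix genes and 10 of the 15 macrophage genes were smaller in DCT-rich than in other spots by the test of the difference, where 3.39% of all genes were called lower, and without Control replicate 2 the matrix count was 7. For Col1a1 that difference was -1.10 and for C1qb -1.11. Of 21 interferon response genes 11 were higher and 0 lower, and 7 without Control replicate 2 or Uox_KO replicate 1. No T and NK cell gene reached the test.

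Of 16 cell cycle genes 12 were higher and 0 lower. Mki67, a marker of cycling cells, was at 0.723 and 1.42 CPM in Control and 13.5 and 11.3 CPM in Uox_KO (adjusted p = 1.77e-05), with 3 and 7 UMIs in Control, and Ccnd1, cyclin D1, at 112 and 111 CPM in Control and 256 and 247 CPM in Uox_KO (log2 1.17 ± 0.12 (SE), adjusted p = 6e-06). The cell cycle count was 4 with 1 score threshold for all sections, 5 in the top 2.5% of spots and 5 after thinning the sums to equal depth. Ccnd1 rose more than in other spots (log2 0.60, adjusted p = 0.000922).

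**Figure D4:**
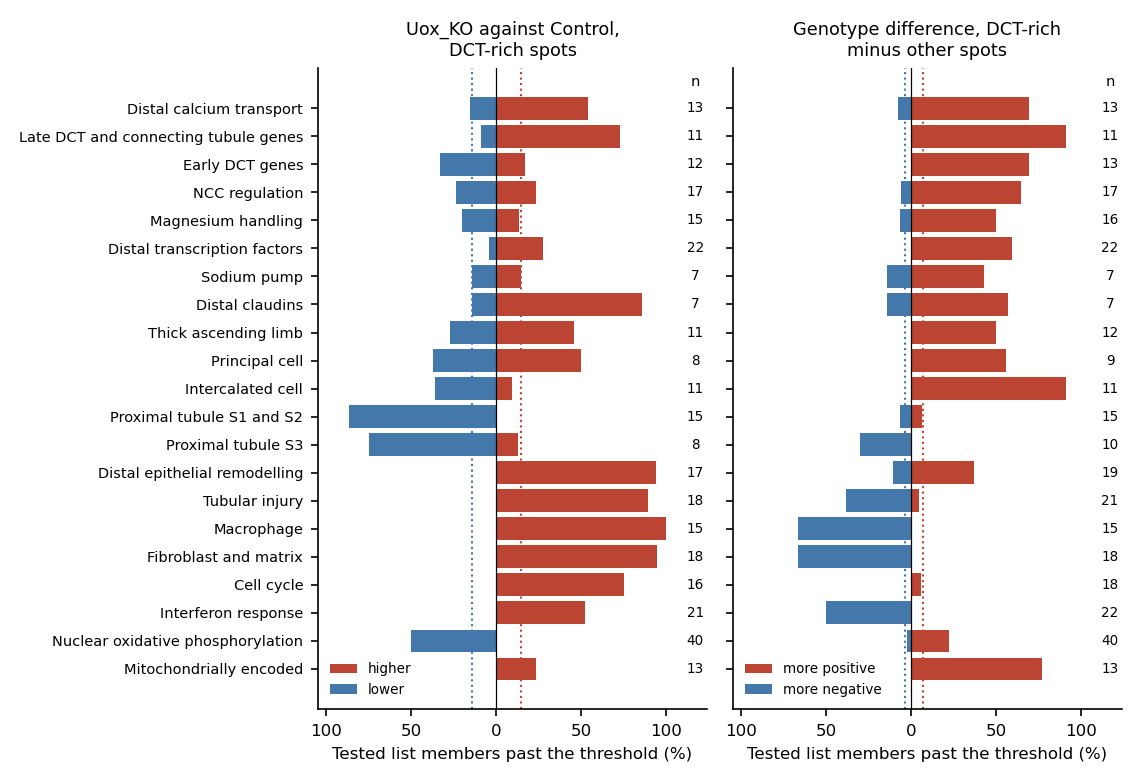
Percent of each list's tested genes (n at the right) called higher or lower in Uox_KO within DCT-rich spots (left panel) and called more positive or more negative in DCT-rich than in other spots (right panel). Dotted lines mark the same percents over all genes tested, 14.3% and 14.6% on the left and 7.16% and 3.39% on the right, and the late DCT, claudin, remodelling, injury, macrophage and matrix lists reach well past the line for higher genes on the left.

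Proximal tubule genes in DCT-rich spots were lower in Uox_KO, with 13 of 15 S1 and S2 markers lower and 0 higher (median log2 -1.53). Slc5a2, the glucose transporter SGLT2, was at 282 and 261 CPM in Control and 43 and 40.5 CPM in Uox_KO (log2 -2.70 ± 0.14 (SE), adjusted p = 1.02e-08), with both Uox_KO sections far below both Control sections. By the test of the difference from other spots 1 of the 15 was more positive and 1 more negative, though 10 were more negative without Uox_KO replicate 1. Genes of red blood cells, 5 of 5 lower, summed to 5685 and 4330.1 CPM in Control and 274 and 366 CPM in Uox_KO. The adipocyte list had 7 of 7 higher and summed to 73.9 and 63.2 CPM in Control and 186 and 360.4 CPM in Uox_KO, against 63.1 and 111 CPM in Control and 1818 and 3288 CPM in Uox_KO in other spots, with Plin1 and Ucp1 at 0 in the DCT-rich spots of Control.

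Lpo was both among the 10 largest rises and among the 10 genes most enriched in these spots. Like Lcn2, Ltbp2 and Htr3a, it reached the average of 10 CPM needed for these rankings only through the Uox_KO sections. Its place in them is therefore partly set by that filter. It was at 1.93 and 1.21 CPM in Control and 76.9 and 86.7 CPM in Uox_KO in DCT-rich spots, 51.9-fold higher (log2 5.70 ± 0.23 (SE), adjusted p = 7.7e-10). DCT-rich spots held 34.8% and 20.7% of the section's Lpo UMIs in Control and 72.0% and 50.6% in Uox_KO. The Control shares rest on few UMIs, 8 of 23 and 6 of 29. Its rise was larger than in other spots by log2 2.23 (adjusted p = 0.0453), a call lost without Control replicate 2 (1.69, adjusted p = 0.254) and with RLE size factors (2.12, 0.0649), with 1 score threshold (1.09, 0.149), in the top 2.5% of spots (1.18, 0.244) and with low-score other spots (1.90, 0.227). Htr3a was at 3.38 and 3.44 CPM in Control and 10.2 and 27.5 CPM in Uox_KO (log2 2.46 ± 0.41 (SE), adjusted p = 0.000465), and at 1.59 without Uox_KO replicate 2. Ltbp2, a TGF-beta binding matrix protein, had 0 UMIs in the DCT-rich spots of both Control sections and 44.1 and 18.7 CPM in Uox_KO, at least 99.5-fold higher when set against 3 counts over the group. The other named rises of the 10 were Lcn2, Timp1, an inhibitor of matrix proteases, Cfd, the adipocyte protease adipsin, Cyp4a14, a fatty acid hydroxylase, and Smoc2, a matrix protein. Cyp4a14 was at 10.1 and 9.72 CPM in Control and 625 and 413 CPM in Uox_KO (log2 5.71).

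Beside Pvalb, the largest falls were Dnase1, a secreted nuclease, at 760.1 and 708 CPM in Control and 54.3 and 48.6 CPM in Uox_KO (log2 -3.83 ± 0.15 (SE), adjusted p = 6.44e-10), Ces1g, a carboxylesterase (log2 -4.63), Apom, an apolipoprotein (-3.73), Azgp1 (-3.96), Clec2h (-4.31) and the hemoglobin genes Hbb-bs (-4.39), Hbb-bt (-4.17) and Hba-a1 (-3.96).

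Whether DCT-rich spots changed differently from the rest of the kidney was tested on the difference itself, the log2 change in DCT-rich spots minus that in other spots. In the other spots, where the sums are far deeper, 5674 of 16298 genes were higher in Uox_KO (34.8%) and 5331 lower (32.7%), 67.5% in all. The difference was called more positive in DCT-rich spots for 1129 of 15770 genes (7.16%) and more negative for 534 (3.39%), so that 67.9% of the calls were positive, with a median over all genes of log2 0.08. That split depended on the scaling and the choice of spots. It was 48.1% with RLE size factors (median -0.02), 48.7% with DESeq2, 33.0% in the top 2.5% of spots (median -0.11), 53.3% with 1 score threshold, 33.3% without Uox_KO replicate 1 (median -0.12) and 37.4% without Uox_KO replicate 2. Of the 3349 genes called in DCT-rich spots and tested throughout, 2619 (78.2%) had no call for the difference. Of genes called in both spot classes 1377 were higher in both and 1579 lower in both, 62 were higher in DCT-rich spots and lower elsewhere, and 11 the reverse.

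By list, the difference was more positive for 11 of 17 genes of NCC regulation and more negative for 1 (median log2 0.87), for 10 and 0 of 11 late DCT genes (1.86), 9 and 0 of 13 early DCT genes (1.22), 9 and 1 of 13 calcium genes (1.22), 13 and 0 of 22 distal transcription factors (0.85), 8 and 1 of 16 magnesium genes (0.41) and 10 and 0 of 11 intercalated cell genes (1.69). With other spots limited to those at or below the section's median score, the positive counts were 8 for NCC regulation (median 0.44), 6 for early DCT genes (0.80) and 5 for magnesium genes (0.24). In fits without 1 section the negative counts of these lists were 0 to 3. For the magnesium genes the positive count was 5 without Control replicate 1 or Uox_KO replicate 2. In other spots 12 of the NCC genes, 10 of the early DCT genes and 12 of the transcription factors were lower in Uox_KO, and 2, 2 and 4 were higher. Wnk4, with overlapping sections in DCT-rich spots, had a difference of log2 1.31 ± 0.10 (SE), adjusted p = 1.39e-07. Kcnj10 had log2 1.73 ± 0.16 (SE), adjusted p = 8.92e-07, with log2 -0.60 in other spots (adjusted p = 0.0664, and -1.11 without Uox_KO replicate 2, which was called). These differences ran along with the uneven concentration of Slc12a3 itself, whose ratio of DCT-rich to other spots was 7.31 and 7.08 in Control and 63.5 and 28.1 in Uox_KO, and the part of that in the differences was not tested.

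Among named genes the largest positive differences were in Klk1 (log2 2.75 ± 0.18 (SE), adjusted p = 3.53e-08) and S100g (log2 2.70 ± 0.24 (SE), adjusted p = 7.32e-07). In other spots Klk1 was at 3550.4 and 5315 CPM in Control and 487 and 1535 CPM in Uox_KO (log2 -2.13, adjusted p = 0.00685, and 0.056 without Control replicate 2). S100g was there at 1706 and 2468 CPM in Control and 349 and 1615 CPM in Uox_KO (log2 -1.09, adjusted p = 0.147), with Uox_KO replicate 1 far lower than replicate 2, and a called fall of -2.57 without Uox_KO replicate 2. In the fit of both spot classes, DCT-rich spots of Control held 1.71 and 1.40 times the other spots' level of S100g, and those of Uox_KO 15.6 and 6.52 times. For Calb1 the difference was log2 1.96 ± 0.23 (SE), adjusted p = 1.86e-05, and 1.18 without Uox_KO replicate 1. With other spots limited to those at or below the section's median score, the difference of Wnk1 was 0.27 with adjusted p = 0.149, against 0.91 with all other spots.

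Among the 62 genes that rose in DCT-rich spots and fell elsewhere, chosen after their values were seen, were Bsnd (log2 0.60 in DCT-rich spots and -1.37 in other spots), Scnn1b (0.66 and -0.99), Cldn8, a claudin of the collecting duct (0.58 and -1.002), Kcnq1, a potassium channel (0.61 and -0.86), and Aqp6, a vesicular aquaporin of intercalated cells (1.49 and -0.70). Aqp6 was 0.87 in DCT-rich spots without Uox_KO replicate 2. The 11 genes that fell in DCT-rich spots and rose elsewhere included Rgs2, a brake on G protein signalling (-1.29 and 0.54), Vegfd, a lymphatic growth factor (-1.09 and 0.61), Tbc1d4, a regulator of transporter trafficking (-0.69 and 0.43), and Gpd1 and Gpd2, the enzymes of the glycerol phosphate shuttle (-0.50 and 0.60 for Gpd1, -0.75 and 0.35 for Gpd2).

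**Figure D5:**
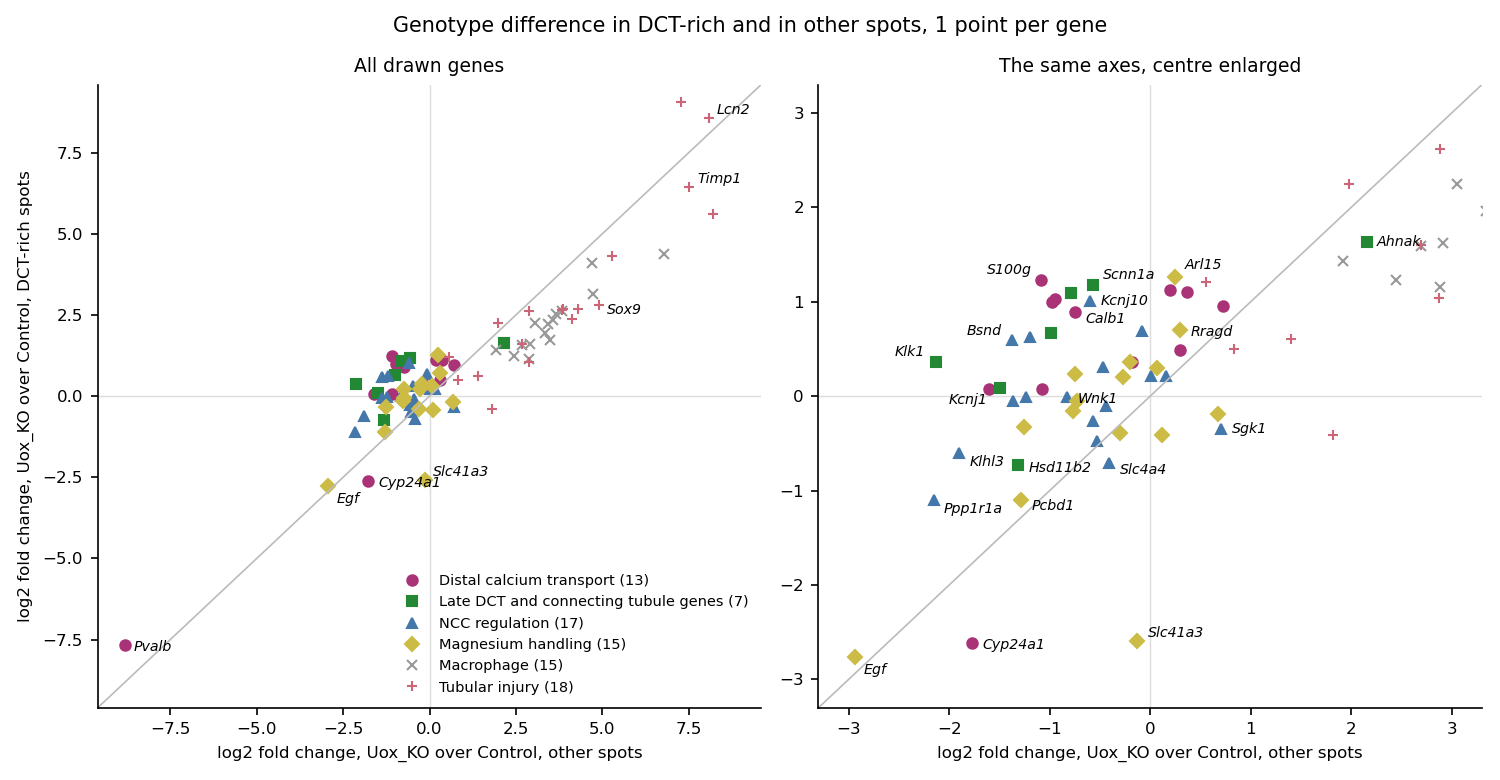
Log2 change of Uox_KO against Control in other spots (x axis) and in DCT-rich spots (y axis), 1 point per gene of 6 lists, with the line of equal change and the centre enlarged in the right panel. Klk1, S100g, Calb1 and Kcnj10 lie above the line, Slc41a3 and Sox9 below it, and Egf close to it.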

How the data were processed

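UMI counts per gene and spot of 4 kidney sections were used as deposited. Per the submitters' processing notes the authors ran Space Ranger 1.3.1 with the mm10 build, and the counts are whole numbers without normalization. Symbols come from the files, which list 32285 Ensembl IDs. Section totals were 53897511 to 107962997 UMIs.

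The members and the gene lists were chosen with earlier results of these data known. Counts were summed over the DCT-rich and over the other spots of each section, filtered with filterByExpr, given TMM factors and tested by the quasi-likelihood F test of edgeR 4.0.16 in R 4.3.3, with Benjamini-Hochberg adjustment over all genes tested and a threshold of 0.05. The genotype test used 4 sums without covariates, and the tests of spot class and of the difference between classes used 8 sums with the section as a block. Slc12a3 and Trpm6 were left out of all tests. Each SE was derived from the test, as the absolute log2 change divided by the square root of its F statistic. CPM use TMM-scaled library sizes of the fit for that spot class, except for Slc12a3 and Trpm6, which use unscaled totals. Tested genes' ratios of DCT-rich to other spots use the fit of 8 sums, so they differ from the quotient of the printed CPM. Scoring, thinning and permutation tests ran in Python 3.11.15 with numpy 2.4.6, pandas 2.3.3 and scipy 1.17.1, and figures in matplotlib 3.10.9. Intervals and limits from counts would cover counting error only. RefSeq promoter windows and gene positions are from GRCm38.p6.

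Named were all detected members of the 7 transport and transcription factor lists, up to 4 members with the smallest p of each other list, and the 10 largest rises, falls, enrichments and differences each way, among genes past the threshold with at least 10 CPM on average and sections that do not overlap. Predicted genes were counted but not named, and some results of list members are not reported here.

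On simulated counts with 200 changed genes, the genotype test recovered 92% of 2-fold and 100% of 4-fold changes, with 13 of 205 calls wrong. The spot class test recovered 97% and 100%, and the test of the difference 68% and 94%. Genes of the lowest levels were not among the changed ones, and each sum was drawn independently from fitted dispersions. In the real DCT-rich spots 28.9% of genes were called, so these rates hold for the simulated setting only. Alternatives were DESeq2 1.42.0, RLE factors, no filter, other choices and depths of spots, a replicate block and leaving out each section. The labels do not say whether the replicate numbers pair sections. The deviations of same-numbered sections had a correlation of 0.0486, which with 2 sections per genotype cannot settle it.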

Additional observations from a re-analysis of the deposited data

Results flagged for a closer look

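The change in Uox_KO differed between DCT-rich and other spots by edgeR's test of the difference for 14 named genes, given as log2 values. Slc41a3 had the largest negative difference among distal transport genes, at -2.38, and Sox9 had -2.001. Klk1 (2.75) and S100g (2.70) had the largest positive ones. Malrd1 was at 2.66, with a change of -0.38 in DCT-rich spots and -2.92 in other spots, and Mymx at 2.42, with 0.60 and -1.72. The other 6 of the 10 largest positive differences were in predicted genes.

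Among the largest negative differences, Thrsp, a regulator of lipogenesis, was at -3.07, with 2.24 in DCT-rich spots and 5.43 in other spots. Ptgds, a prostaglandin synthase, was at -2.98 (0.89 and 3.97), and Fabp4, the adipocyte fatty acid binding protein, at -2.79 (0.997 and 3.87). Pdk4, a pyruvate dehydrogenase kinase, was at -2.64 (0.42 and 3.15) and Car3, the carbonic anhydrase of fat, at -2.21 (0.11 and 2.45). The fatty acid synthesis enzymes Acaca and Fasn were at -2.38 (0.95 and 3.43) and -2.32 (1.44 and 3.86), and the complement gene C4b at -1.94 (1.62 and 3.65). The difference was more negative for 2 of 8 genes of the adipocyte list and more positive for 0. The list summed to 73.9 and 63.2 CPM in Control and 186 and 360.4 CPM in Uox_KO in DCT-rich spots and to 63.1 and 111 CPM in Control and 1818 and 3288 CPM in Uox_KO in other spots, and its part in these differences was not tested.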

How the results depend on the processing

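Over 16 alternatives, 2251 comparisons of a named gene with its main value kept the call or the lack of one, 56 lost the call and 56 gained it. Changes of sign where neither fit made a call are counted among the 2251. In 4 comparisons the sign turned with a call in either fit. Wnk1 turned to 0.55 and Wnk4 to 0.30 in DCT-rich spots with 1 score threshold. Kl turned to -0.28 without Uox_KO replicate 2 (0.38 without replicate 1). The Egf difference between spot classes turned to -0.46 without Uox_KO replicate 2 (0.45 without replicate 1). In DCT-rich spots, genes called higher were 853 with DESeq2, 2496 in the top 10% of spots and 1055 to 1670 without 1 section, and genes called lower 918 with DESeq2 and 1119 to 1755 without 1 section. Genes with a more positive difference between spot classes were 331 with DESeq2 (2752 genes without an adjusted p), 670 with RLE size factors, 503 in the top 2.5% of spots, 524 with other spots limited to those at or below the median score, and 455 to 801 without 1 section. Genes with a more negative difference were 349 with DESeq2, 1093 with 1 score threshold, 1023 in the top 2.5% of spots, 953 with low-score other spots, and 279 to 1603 without 1 section. The comparison with low-score other spots was chosen after seeing the data. A replicate block, though the labels do not say that the numbers pair sections, gave 1886 higher and 1970 lower genes in DCT-rich spots. It gave 1430 more positive and 745 more negative differences. With every spot thinned to 2000 UMIs the share with a UMI differed by -51.0 points for Pvalb, 11.1 for Lcn2 and 4.17 for Havcr1. The causes of these shifts were not tested. A fit without 1 section leaves 1 section in a genotype, which is assumed to vary like the other genotype. Sums of 2545900 to 5160522 UMIs limit what could be tested in DCT-rich spots.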
